A study of Mus musculus with 6 samples.

Results

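The Ifitm family (interferon-induced transmembrane proteins) was described here in mouse CD8+ T cells cultured with or without an inhibitor of the histone demethylase LSD1. The members were the 5 genes Ifitm1, Ifitm2, Ifitm3, Ifitm6 and Ifitm10, taken as the rows of the count table that carry these symbols. A row was found for 4 of the 5 among 16281 genes, and all 4 had enough reads to be among the 11698 genes tested. No value of Ifitm6 was analysed here. The family was chosen with the GSK against Veh differences of these samples already known, so the members' values in that comparison are given as a description, without a test, and nothing rests on them.

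The cells were CD8+ T cells of OT1 mice, a C57BL/6 line of genotype Tg(TcraTcrb)1100Mjb in which T cells carry 1 transgenic receptor for an ovalbumin peptide. They came from spleen according to the sample labels, while the series text names lymph nodes too, and no age was given in the sources used here. All samples were activated for 48 h on plates coated with anti-CD3 (2 μg/ml), with anti-CD28 in solution and IL-2 at 20 ng/mL, and then expanded in IL-2 for 3 days. The Veh group (n = 3) received vehicle and the GSK group (n = 3) received 0.5 μM GSK2879552, an irreversible LSD1 inhibitor, throughout both phases. The study names 3 separate OT1 mice as the source but not which cultures shared a mouse, so spreads and p-values describe these cultures. Poly(A)+ RNA was sequenced, and total counts per sample lay between 18288447 and 18918811 in Veh and between 19149909 and 19846720 in GSK.

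IFITM proteins are small membrane proteins that sit at the cell surface and in endosomes and lysosomes, where they hinder the fusion of incoming virus particles with the cell's membranes. Ifitm3 acts mainly against viruses that enter through endosomes, and Ifitm1 and Ifitm2 are close relatives that also restrict entry. Their genes are induced by type I and type II interferon through STAT factors and IRF9, which bind interferon-stimulated response elements near the gene start, and T cells carry them also without infection. Ifitm10 is the most distant member, is not known to respond to interferon and has no settled function.

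Ifitm1, Ifitm2, Ifitm3 and Ifitm6 lie together on chromosome 7, within 62.1 kb from chr7:140954837 to chr7:141016892 of GRCm38 in the RefSeq annotation. Ifitm2 (Entrez 80876) is at chr7:140954837-140959686 on the minus strand, and Ifitm1 (Entrez 68713) at chr7:140967429-140969827 on the plus strand. Ifitm3 (Entrez 66141) is at chr7:141009590-141010744 and Ifitm6 (Entrez 213002) at chr7:141015812-141016892, both on the minus strand. Ifitm10 (Entrez 320802) lies apart, at chr7:142325835-142373779 on the minus strand, 1308.9 kb from the cluster.

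The stretches in front of the RefSeq starts are shown because the 3 cluster genes with a row are neighbours that differ in their counts below. For Ifitm1 and Ifitm2 the RefSeq span given above begins further upstream than this start, so their stretches lie within that span, and no stretch touches an exon of the GENCODE M21 annotation. They were read from RefSeq promoter windows (GRCm38.p6, 300 bases around each start) and searched on both strands for a GAAA pair, that is GAAA, any 2 bases and GAAA again, the core of the interferon-stimulated response element. They were also searched for TTCNNNGAA, the core of the STAT site. A GAAA pair was present in the windows of 3.90% of 9417 tested genes with a window, and a TTCNNNGAA match in 8.45%. Capitals mark a GAAA pair, and each line runs 5′ to 3′ on the gene's own strand.
Ifitm2, bases -150 to -31, chr7:140955992-140956111, minus strand: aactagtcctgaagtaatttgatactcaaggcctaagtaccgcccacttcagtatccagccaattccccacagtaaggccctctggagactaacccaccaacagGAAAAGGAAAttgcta
Ifitm1, bases -150 to -51, chr7:140967926-140968025, plus strand: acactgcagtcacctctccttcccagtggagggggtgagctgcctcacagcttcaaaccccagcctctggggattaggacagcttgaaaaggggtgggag
Ifitm3, bases -150 to -31, chr7:141010775-141010894, minus strand: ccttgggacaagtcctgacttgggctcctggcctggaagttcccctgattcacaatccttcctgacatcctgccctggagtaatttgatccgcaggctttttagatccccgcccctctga

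The matches of Ifitm3 fell just after its start, so they are printed with 10 bases on each side, beside that of Ifitm2.
Ifitm2, match at -46, chr7:140955988-140956017, minus strand: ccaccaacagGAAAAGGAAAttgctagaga
Ifitm3, match at 3, chr7:141010723-141010752, minus strand: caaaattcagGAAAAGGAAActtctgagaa
Ifitm3, match at 20, chr7:141010706-141010735, minus strand: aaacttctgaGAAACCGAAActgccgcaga

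The Ifitm2 window held 1 match and the Ifitm3 window 2, while these letters did not occur in the window of Ifitm1. The Ifitm3 window also held TTCTGAGAA, a TTCNNNGAA match, at position 14, which overlaps the second GAAA pair. The Ifitm6 window held TTCCTTGAA at -10 and no GAAA pair, and the 3 windows of Ifitm10 held neither. The longest run of bases shared by the Ifitm2 and Ifitm3 windows was CAGGAAAAGGAAA, 13 bases that include the match printed above. The window of Ifitm1 shared at most 8 bases in a row with either. A match is a description of the letters and not a measured binding site, and starts further upstream were not searched, although the RefSeq spans of Ifitm1 and Ifitm2 both begin before their windows.

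Ifitm3 was the member with the clear difference between the groups. Its counts were 1557, 2036 and 1715 in Veh and 3713, 3035 and 3303 in GSK, which as normalized read counts (CPM, scaled to library size with TMM factors) were 84.7, 109 and 90.1 in Veh and 195, 154 and 172 in GSK. Every GSK sample was above every Veh sample. The mean was 94.7 ± 12.9 CPM in Veh and 174 ± 20.7 in GSK (SD, n = 3), a log2 fold change of 0.87 with a standard error of 0.13, or 1.83-fold. The cells were measured in bulk, so more cells with Ifitm3 RNA and more of it per cell cannot be told apart.

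Ifitm2 was higher on average in GSK, with overlapping groups. It had 233, 273 and 309 CPM in Veh and 334, 280 and 363 CPM in GSK. The GSK sample of replicate 2 lay below the Veh sample of replicate 3, and the other GSK samples lay above all Veh samples. The means were 272 ± 38 and 326 ± 42.4 CPM (SD, n = 3), a log2 fold change of 0.26 with a standard error of 0.14.

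Ifitm1 differed less than its own spread. It had 342, 406 and 435 CPM in Veh and 440, 384 and 448 CPM in GSK. The ranges of the groups overlapped over most of their width. The means were 394 ± 47.9 and 424 ± 34.5 CPM (SD, n = 3), a log2 fold change of 0.10 with a standard error of 0.10.

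Ifitm10 was close to the lower limit of what was tested. Its counts were 19, 12 and 26 in Veh and 15, 17 and 19 in GSK, all GSK samples lying within the range of Veh. The means were 1.01 ± 0.362 and 0.879 ± 0.103 CPM (SD, n = 3), a log2 fold change of -0.21 with a standard error of 0.36. Without the Veh sample of replicate 3 this value was 0.070, so the depth gave no direction for Ifitm10.

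**Figure D1:**
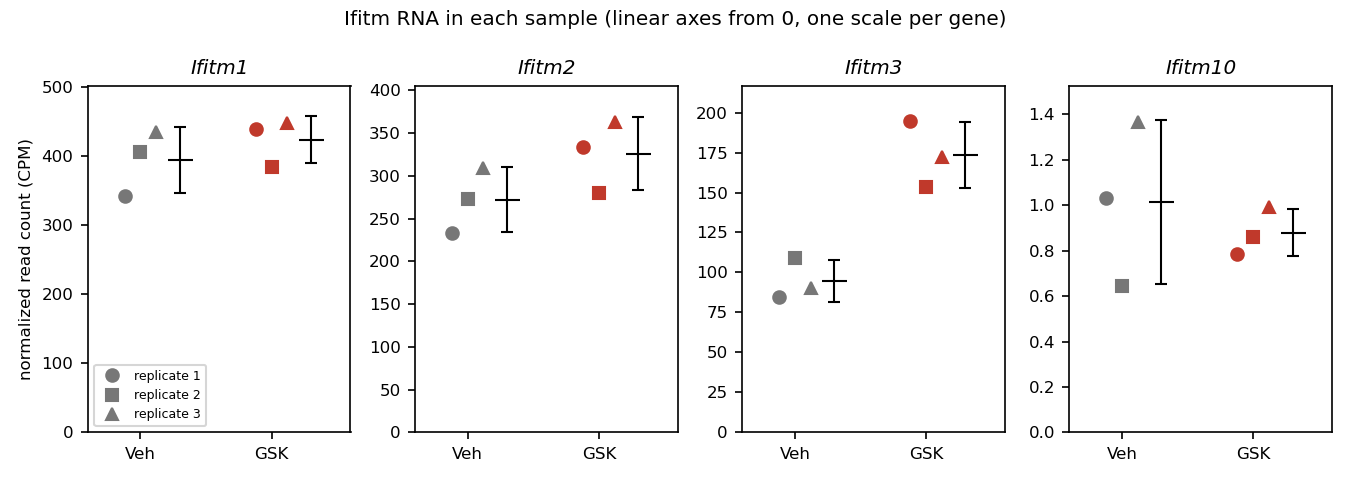
Normalized read counts (CPM, linear axes from 0, a scale of its own for each gene) of the 4 members with a row, with 1 point per sample and the mean ± SD of 3 samples beside each group. The GSK points of Ifitm3 lie between 154 and 195 CPM, all above the Veh points, while the groups of Ifitm1, Ifitm2 and Ifitm10 overlap.

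Genes were called at an adjusted p under 0.05 together with a fold change over 1.5, over all genes tested. By this rule 2.22% of all genes were called higher in GSK and 4.09% lower, and of the 4 members 1 was called higher and 0 lower. Groups that did not overlap, in either direction, were seen for 46.7% of all genes and for 1 of the 4 members. Since the members were chosen on this comparison, nothing is read from either count.

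Per kilobase of exon, which allows levels of different genes to be compared, Ifitm2 was the highest member, followed by Ifitm1, Ifitm3 and Ifitm10. In Veh the levels were 415 ± 58.0 CPM per kb for Ifitm2 and 360 ± 43.9 for Ifitm1 (SD, n = 3), and these neighbours in the order overlapped. Ifitm3 followed at 140 ± 19 CPM per kb and Ifitm10 at 0.212 ± 0.0755, each step larger than the spread of the samples. In GSK the levels of Ifitm2, Ifitm1, Ifitm3 and Ifitm10 were 497 ± 64.7, 387 ± 31.5, 256 ± 30.5 and 0.184 ± 0.0215 CPM per kb. The order was the same, with all 3 steps now free of overlap. Exon lengths were those of GENCODE M21, whose release may differ from the one used for counting. They join the exons of all annotated transcripts of a gene, 1094 bases for Ifitm1 and 655 for Ifitm2. Before this division Ifitm1 was above Ifitm2 in both groups, so the order of these 2 genes rests on the lengths.

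Within a sample, where depth and scaling cancel, the members moved apart in the same way. The counts of Ifitm3 divided by those of Ifitm1 gave 0.248, 0.269 and 0.207 in Veh and 0.443, 0.400 and 0.385 in GSK. Against Ifitm2 the ratios of Ifitm3 were 0.363, 0.400 and 0.291 in Veh and 0.583, 0.549 and 0.474 in GSK. Both ratios were higher in each GSK sample than in any Veh sample. The ratio of Ifitm2 to Ifitm1 moved less, from 0.683, 0.674 and 0.710 in Veh to 0.760, 0.728 and 0.812 in GSK, and these values also did not overlap. With 3 samples against 3 an exact permutation test cannot go below a p of 0.1, and none was run on these ratios since the comparison had chosen the members.

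Of the summed counts of Ifitm1, Ifitm2 and Ifitm3, the share of Ifitm3 was 12.5 ± 1.56% in Veh and 18.8 ± 1.30% in GSK (SD, n = 3). The share of Ifitm1 was 51.8 ± 0.348% in Veh and 46.0 ± 0.888% in GSK. The share of Ifitm2 stayed close, at 35.7 ± 1.22% and 35.2 ± 1.51%. In the parts of Ifitm1 and Ifitm3 no GSK sample overlapped a Veh sample.

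**Figure D2:**
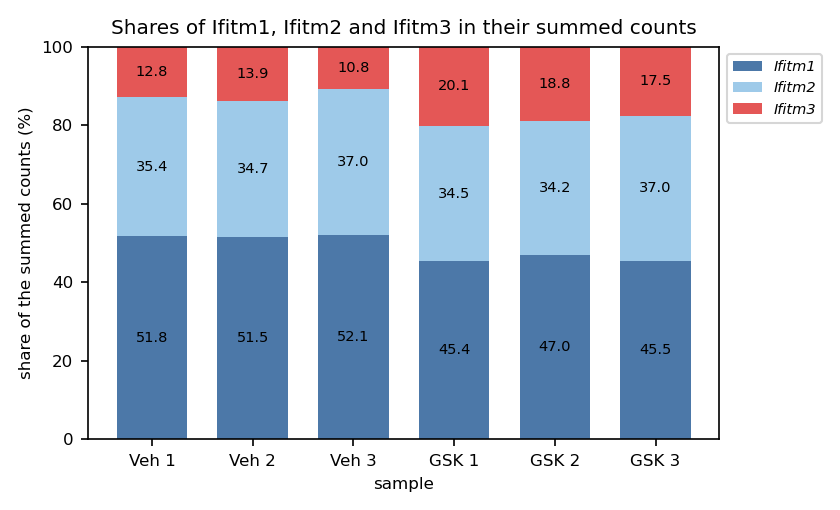
Share (%) of each of Ifitm1, Ifitm2 and Ifitm3 in their summed counts, 1 stacked bar per sample, counts not divided by gene length. The Ifitm3 part is between 10.8% and 13.9% in the Veh samples and between 17.5% and 20.1% in the GSK samples.

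Reads of these genes can be confused with each other and with copies. The longest stretch shared by annotated transcripts was 69 bases between Ifitm2 and Ifitm3, 64 between Ifitm1 and Ifitm3, and 40 between Ifitm1 and Ifitm2. Of all windows of 31 bases, 11.6% in Ifitm1, 20.5% in Ifitm3, 55.5% in Ifitm2 and 4.28% in Ifitm10 also occurred in a transcript of another gene, among them the copies Gm7676 and Gm11951. At the read length of 150 bases the shares were 0 for Ifitm1 and Ifitm3, 23.5% for Ifitm2 and 1.43% for Ifitm10. Ifitm2 overlaps Gm45717 and Ifitm10 overlaps Gm49369, each on the same strand, and neither overlapping gene had a row. The values of Ifitm2 are therefore the least certain of the 3 cluster genes, and those of Ifitm1 and Ifitm3 rest on sequence that whole reads can tell apart.

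Across the 6 samples Ifitm1 and Ifitm2 followed each other, with a Pearson correlation of log2 CPM of 0.94. The correlation was 0.71 between Ifitm2 and Ifitm3 and 0.55 between Ifitm1 and Ifitm3. Ifitm10 had correlations of 0.052 with Ifitm1, 0.089 with Ifitm2 and -0.42 with Ifitm3. The 6 points share the 2 groups and the cultures, so these values only describe the samples.

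The genes most like each member were sought among 9601 genes of at least 5 CPM on average, as those with the highest correlation over the same 6 samples. Nearest to Ifitm3 were Pim1, a serine/threonine kinase, at 0.999, Exosc3, a subunit of the RNA exosome, at 0.997, and Eps8, a regulator of actin, at 0.995. Nearest to Ifitm2 were Ywhae, a 14-3-3 protein, at 0.996, the mitochondrial ribosomal gene Mrps6 at 0.988, and Suz12, a subunit of the Polycomb repressive complex, at 0.987. Nearest to Ifitm1 were the chromatin assembly gene Chaf1b at 0.995, Pole3, a subunit of a DNA polymerase, at 0.983, and Hpf1, a partner of PARP enzymes, at 0.983. For the sparse counts of Ifitm10 the correlation was 0.966 with Ogfod2 and 0.964 with F8a. Likeness in pattern did not mean likeness in size, since Pim1 went from 224 ± 3.70 to 243 ± 4.11 CPM and Eps8 from 10.4 ± 1.33 to 16.5 ± 1.34 (SD, n = 3). All these genes were picked as the highest of 9601 correlations over 6 samples, so high values were bound to appear. Shared regulation was not tested.

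A comparison that the choice of the family did not use is that between the numbered samples within the groups. It was tested across all genes as the effect of the replicate number in a model with the treatment, where 25 genes, 0.214% of those tested, passed an adjusted p of 0.05 (edgeR's quasi-likelihood test). None of the 4 members was among them, each with an adjusted p of 1.00. At an unadjusted p under 0.05 there was 1 member, Ifitm2, and DESeq2 gave 0 at its adjusted p. By contrast 13 of 32 interferon-stimulated genes outside the family passed, a list that was itself written with earlier results of these data known. Among them were Ifit1 and Ifit3, which bind viral RNA or support that binding, Isg15, a ubiquitin-like modifier, and Oas2, a sensor of double-stranded RNA, with adjusted p-values of 0.015, 0.013, 0.028 and 0.013.

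The interferon-stimulated genes were low in replicate 3 of both groups, and the Ifitm genes were not. Isg15 had 17.1, 18.2 and 8.04 CPM in Veh and 26.6, 29.5 and 16.5 CPM in GSK, and Oas2 had 12.7, 12.5 and 5.15 CPM in Veh and 17.8, 14.9 and 6.83 CPM in GSK. Replicate 3 was the lowest sample in both groups for 30 of the 32 genes, for 0 of the 4 members and for 13.9% of all genes. The mean log2 CPM of the 32 genes was 5.50, 5.51 and 4.86 in Veh and 5.65, 5.84 and 5.23 in GSK.

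As a log2 difference of replicate 3 from the mean of replicates 1 and 2 over both groups, Ifitm1 had 0.17 with a standard error of 0.081 and Ifitm2 0.27 with 0.085, both on the high side. Ifitm3 had -0.059 with a standard error of 0.14, and Ifitm10 0.50 with 0.38. The 32 interferon-stimulated genes had a median of -0.47 and a range of -1.45 to 0.46, with 31 below 0, and all genes had a median of 0.0019. The one gene above 0 was Xaf1, a binding partner of an apoptosis inhibitor, with 46.0, 51.3 and 67.2 CPM in Veh and 52.6, 60.6 and 77.2 CPM in GSK.

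These counts by replicate number depended on single samples. The 13 interferon-stimulated genes became 0 without the Veh or the GSK sample of replicate 3, 26 without the Veh sample of replicate 2 and 24 without the GSK sample of replicate 2. The 25 genes over the whole table became 10 and 1 without the Veh and the GSK sample of replicate 3, 488 and 136 without those of replicate 2, and 38 without the GSK sample of replicate 1. None of the members passed in any of these fits.

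**Figure D3:**
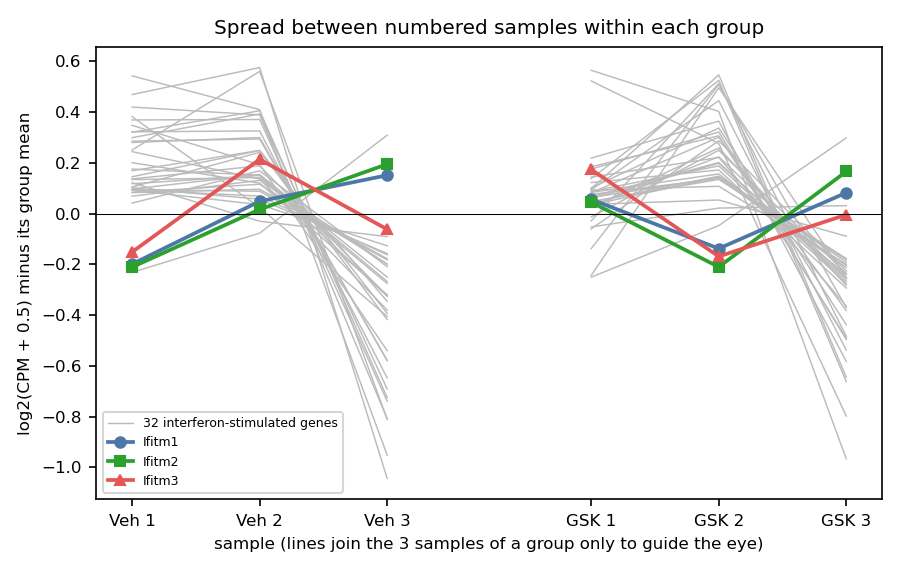
Log2(CPM + 0.5) of each gene minus the mean of its own group, in the 3 Veh and 3 GSK samples, with 32 interferon-stimulated genes in grey and Ifitm1, Ifitm2 and Ifitm3 in colour. Most grey lines drop at replicate 3 of both groups (30 of 32 are lowest there), while none of the 3 coloured lines is lowest there in both groups.

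The number of interferon-stimulated genes that passed between GSK and Veh depended on how the replicate number was treated. Of the 34 listed, 32 were tested, and 2 passed the adjusted p as higher and 0 as lower in the fit without the replicate number, beside 16.6% and 15.5% of all genes. With the replicate number as a block 16 passed as higher and 2 as lower. The share of all genes passing the adjusted p in that fit was not computed, so these 2 counts have no background beside them. In the fit without the block the median log2 fold change of the interferon-stimulated genes was 0.21 with 24 of 32 above 0, where the median of all genes was -0.0039. At an unadjusted p under 0.05 there was 1 lower gene, and DESeq2 gave 3 higher and 0 lower. Zbp1, a sensor of Z-form nucleic acid, rose from 139 ± 25.6 to 217 ± 26.6 CPM (SD, n = 3), a log2 fold change of 0.65 with a standard error of 0.17 and an adjusted p of 0.045. Ifi35 rose from 55.9 ± 7.34 to 71.9 ± 3.86 CPM, a log2 fold change of 0.36 with an adjusted p of 0.0083.

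The next genes by p were Isg20, an exonuclease, at a log2 fold change of 0.53 with an adjusted p of 0.064, and Ifi27 at -0.17 with 0.088. The count of 2 higher was 1 without the GSK sample of replicate 1 or of replicate 2, and 1 gene was lower without the Veh sample of replicate 3.

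Upstream of these genes are the interferons, their receptors and the JAK-STAT chain. Of 19 genes listed 16 were tested, and 2 passed as higher and 5 as lower, beside 16.6% and 15.5% of all genes. The median log2 fold change was -0.10, where that of all genes was -0.0039. Ifng, the type II interferon that T cells themselves secrete, had 2.39, 6.33 and 5.52 CPM in Veh and 12.8, 10.4 and 14.2 CPM in GSK. All GSK samples were above all Veh samples, with a log2 fold change of 1.39, a standard error of 0.31 and an adjusted p of 0.014. The type I interferons were nearly absent, with 4 reads of Ifna4 and 1 read of Ifnb1 in all 6 samples together.

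Both chains of the receptor for this interferon fell. Ifngr1, the ligand-binding chain, went from 715 ± 27.9 to 536 ± 28.4 CPM (SD, n = 3), a log2 fold change of -0.42 with an adjusted p of 3.3e-05. Ifngr2, the signalling chain, had 15.6, 14.4 and 13.8 CPM in Veh and 9.66, 9.46 and 8.66 CPM in GSK, a log2 fold change of -0.65 with an adjusted p of 6e-04. Ifnar1, a chain of the type I receptor, and the receptor kinases Jak2 and Tyk2 also fell, by 0.23, 0.27 and 0.19 on the log2 scale, with adjusted p-values of 0.011, 0.0031 and 0.0088. Socs1, which blocks JAK kinases, rose from 71.2 ± 7.57 to 91.2 ± 4.03 CPM with an adjusted p of 0.0024. The count of 2 higher was 1 without the GSK sample of replicate 3.

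Among other factors that restrict viruses, more passed as lower than as higher. Of 17 listed 16 were tested, and 1 passed as higher and 7 as lower, beside 16.6% and 15.5% of all genes. The median log2 fold change was -0.15, where that of all genes was -0.0039. Serinc3 and Serinc5, membrane proteins that lower the infectivity of retrovirus particles, fell by 0.40 and 0.81 on the log2 scale with adjusted p-values of 4.1e-05 and 0.0027. Serinc3 had 885, 839 and 917 CPM in Veh and 668, 697 and 630 CPM in GSK, and Serinc5 had 20.2, 13.5 and 18.6 CPM in Veh and 10.6, 10.9 and 8.29 CPM in GSK. In neither did the groups overlap.

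Among the others that fell were Zc3hav1, which targets viral RNA for decay, Apobec3, a cytidine deaminase, Ly6e, a surface protein that affects virus entry, and the scramblase Plscr1, by between 0.14 and 0.29 on the log2 scale. The exonuclease Trex1 rose from 19.2 ± 1.25 to 22.7 ± 1.35 CPM (SD, n = 3) with an adjusted p of 0.044. The count of 7 lower was 4 without the GSK sample of replicate 1. The 1 higher was lost without the Veh sample of replicate 1 or 3 or the GSK sample of replicate 1 or 2, and became 2 without the Veh sample of replicate 2.

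**Figure D4:**
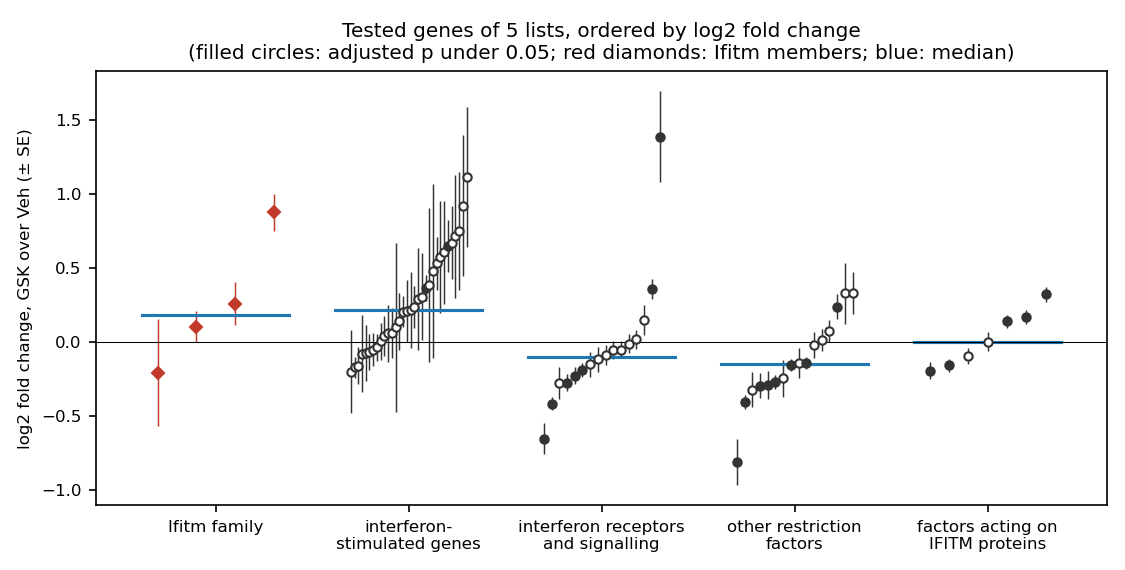
Log2 fold change of GSK over Veh (± SE) of every tested gene in 5 lists, ordered within each list, with the list's median as a blue line, filled circles for an adjusted p under 0.05 and red diamonds for the Ifitm members. The median is 0.21 for the interferon-stimulated genes, -0.10 for receptors and signalling and -0.15 for other restriction factors, and Ifitm3 stands at 0.87.

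The proteins known to act on IFITM proteins are of interest because one of them is LSD1, the target of GSK. LSD1 removes, and SETD7 adds, a methyl group on a lysine of IFITM3, ZDHHC20 attaches palmitate and NEDD4 attaches ubiquitin, while VCP and the protease ZMPSTE24 also bind or work with IFITM proteins. Kdm1a, which encodes LSD1, had 90.2, 89.1 and 99.1 CPM in Veh and 86.4, 84.0 and 90.9 CPM in GSK. The groups overlapped, with a log2 fold change of -0.092 and an adjusted p of 0.22, and since the drug acts on the protein this RNA does not check the treatment.

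All 7 genes of this list were tested, and 3 passed as higher and 2 as lower, beside 16.6% and 15.5% of all genes. Vcp rose from 453 ± 6.05 to 566 ± 42.7 CPM (SD, n = 3), a log2 fold change of 0.32 with an adjusted p of 4.4e-04. Zmpste24 and Nedd4 rose by 0.17 and 0.14 on the log2 scale, with adjusted p-values of 0.016 and 0.033. Setd7 fell from 166 ± 3.17 to 149 ± 5.56 CPM with an adjusted p of 0.017, and Zdhhc20 fell by 0.19 on the log2 scale with 0.022. No fold change in this list reached 1.5.

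The counts of this list were sensitive to single samples. The 3 higher became 1 without the Veh sample of replicate 1 or 3 or the GSK sample of replicate 1 or 3. The 2 lower became 1 without any single Veh sample or the GSK sample of replicate 1, and 0 without the GSK sample of replicate 3.

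The genes around the cluster and around Ifitm10 were compared to see whether the region moved as a whole. Of 36 names listed 23 were tested, and 2 passed as higher and 4 as lower, beside 16.6% and 15.5% of all genes. The median log2 fold change was 0.072, where that of all genes was -0.0039. The names included Ifitm7, which lies on chromosome 16 and was not tested. The tested genes closest to Ifitm3 outside the member list were B4galnt4, a glycosyltransferase gene at 50.3 kb, and Ifitm5, a relative known from bone, at -60.5 kb on the side of Ifitm1 and Ifitm2. B4galnt4 had a log2 fold change of 0.53 with a standard error of 0.29 and an adjusted p of 0.23. Ifitm5 had counts of 7, 10 and 19 in Veh and 18, 11 and 12 in GSK, a log2 fold change of 0.14 with an adjusted p of 0.83.

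Of the other neighbours, Psmd13, a proteasome subunit, and Hras, a small GTPase, rose by 0.20 and 0.32 on the log2 scale, with an adjusted p of 0.00585 and 0.00545. Sigirr, a receptor that dampens IL-1 family signals, fell by 0.35, Lrrc56 by 0.77, and near Ifitm10 Lsp1 and Mob2 fell by 0.22 and 0.33, with adjusted p-values of 7.3e-04, 0.031, 0.0089 and 0.0057. Irf7, a transcription factor of the interferon response that lies 255.7 kb from Ifitm3, had a log2 fold change of 0.22 with a standard error of 0.26 and an adjusted p of 0.58. The remaining neighbours had adjusted p-values above 0.05. Their log2 fold changes were 0.045 for Ric8a, 0.095 for Bet1l, -0.16 for Sirt3, 0.59 for Nlrp6, 0.031 for Pgghg, 0.14 for Pkp3, -0.13 for Ptdss2, 0.028 for Rnh1, 0.16 for Rassf7, 0.072 for Phrf1 and 0.017 for Deaf1 around the cluster. Around Ifitm10 they were 0.11 for Ctsd, -0.70 for Tnnt3 and 0.097 for Mrpl23. The 4 lower became 2 without the GSK sample of replicate 1.

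**Figure D5:**
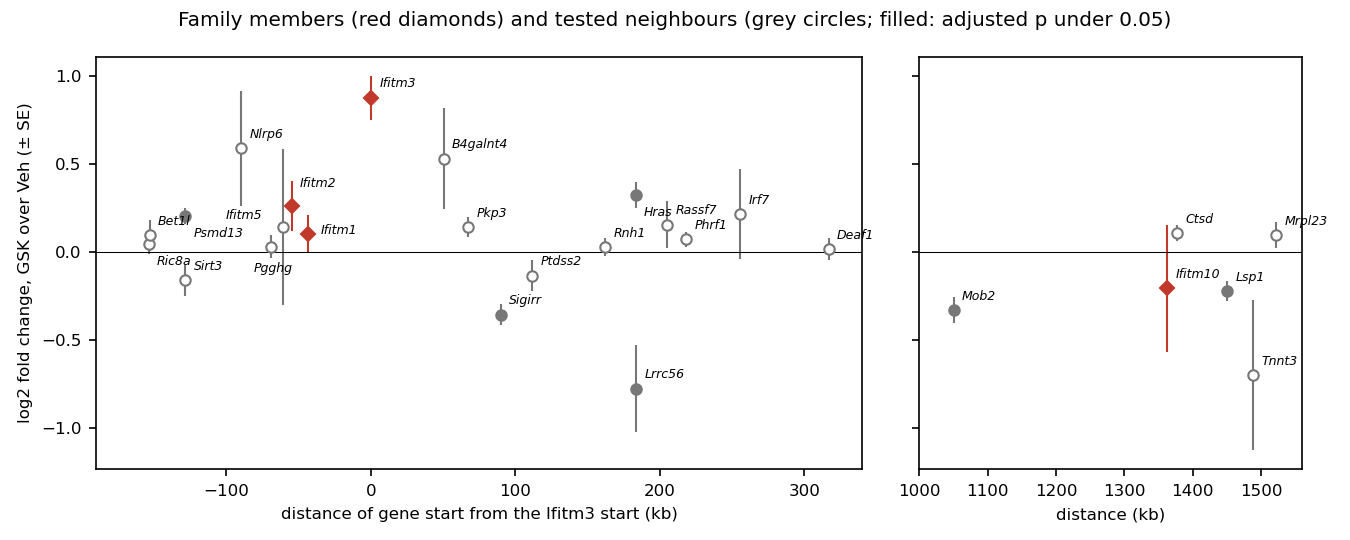
Log2 fold change of GSK over Veh (± SE) against the distance of each gene's start from that of Ifitm3 in kb, in 2 panels for the cluster and for the region of Ifitm10, with members as red diamonds and tested neighbours as grey circles, filled for an adjusted p under 0.05. Ifitm3 stands at 0.87, while Ifitm1 and Ifitm2 on one side lie at 0.10 and 0.26.

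The remaining relative Ifitm7, which lies on chromosome 16 and is no listed member, had counts of 9, 1 and 4 in Veh and 4, 0 and 2 in GSK and was not tested. Markers of other cells that carry Ifitm RNA were low. The summed level of 8 B cell markers was 6.31 to 8.21 CPM in Veh and 7.98 to 9.72 in GSK, and that of 12 myeloid and neutrophil markers, of which 9 had a row, was 11.98 to 16.6 and 10.5 to 13.9. NK cell markers summed to 36.6 to 41.1 CPM in Veh and 38 to 45.0 in GSK, CD4 T cell markers to 43.9 to 53.2 and 40.7 to 45.9, and CD8 T cell markers to 3089 to 3215 and 2999 to 3180. Cr2, Adgre1 and Ncr1, among the lowest genes of their lists, reached at most 0.0521, 0.0544 and 0.0525 CPM in any sample, each with samples at 0. Cd79b, Cd68 and Itga2 reached 7.56, 10.9 and 25.6 CPM. Ms4a1 had counts of 0, 2 and 2 in Veh and 4, 6 and 8 in GSK. Cd79a had 3, 1 and 0 in Veh and 5, 11 and 5 in GSK, while Cd79b was lower on average in GSK. Of the NK cell markers Klre1 went from 8.04 ± 0.322 to 11.4 ± 1.58 CPM, while Cd244a was lower on average in GSK. Cd22 took part in the B cell sum with 0.409 ± 0.186 CPM in Veh and 2.60 ± 0.279 in GSK (SD, n = 3). Most of the CD4 T cell sum was Zbtb7b, at 42.1 ± 6.31 CPM in Veh and 37.6 ± 3.48 in GSK, and Cd4 was also lower on average in GSK. Cd40lg went the other way, from 0.446 ± 0.315 to 1.29 ± 0.200 CPM without overlap, and Foxp3 from 3.26 ± 1.38 to 3.55 ± 1.25. The B cell and NK cell sums were the ones that were higher on average in GSK together with Ifitm3, with overlapping ranges. The part of these sums or of single markers in the Ifitm3 difference was not tested.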

How the data were processed

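RNA of 6 cultures of OT1 CD8+ T cells was sequenced as 150-base read pairs from stranded poly(A)+ libraries. According to the paper and the submitters' processing notes, reads were mapped to GRCm38 with HISAT2 (version 2.1.0) and counted per gene with HTSeq (version 0.11.2). The deposited values are whole counts that the authors did not normalize. The annotation release and the strand setting are not given in the sources used here.

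GSK was compared with Veh by the robust quasi-likelihood F test of edgeR (version 4.0.16, under R version 4.3.3) on these counts. Low genes were removed by filterByExpr, libraries were scaled by TMM and p-values were adjusted by Benjamini-Hochberg over the 11698 genes that were left. Standard errors were derived from the F statistic. On simulated data 97% of 200 changed genes were recovered, with 2 false calls. Samples of a group differed by more than counting noise (chi-square divided by its degrees of freedom, 3.95 to 9.02). The members and lists were chosen with earlier results of these data known. From each list the 4 genes with the smallest p and those with an adjusted p under 0.05 were named, with all tested neighbours, except for some genes that are not reported here. Xaf1, Isg15, Oas2, Ifit1, Ifit3, Kdm1a, Irf7 as a pathway gene, Ifna4, Ifnb1, Ifitm7 and the single cell markers were named after their values were seen. Gene positions and sequences came from RefSeq (GRCm38.p6), and exon lengths, gene overlaps, shared stretches and distances between starts from GENCODE M21. Alternatives were to leave out each sample, to use DESeq2 (version 1.42.0) or RLE size factors, to keep all genes or only those with a CPM of at least 1 in 3 samples, to add the replicate number as a block, to test the fold against 1.5 and to drop the fold criterion. Leaving out samples in the replicate-number test was added after seeing the data.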

Additional observations from a re-analysis of the deposited data

How the results depend on the processing

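The members' values are given here as ranges only, since this comparison had chosen them. Over 11 alternatives the log2 fold change lay between 0.78 and 0.99 for Ifitm3, between 0.012 and 0.18 for Ifitm1 and between 0.16 and 0.36 for Ifitm2. Ifitm10 lay between -0.45 and 0.070 in 10 alternatives and reversed to 0.070 without the Veh sample of replicate 3. It was not tested with a minimum of 1 CPM. In a test of the fold change against 1.5 itself, 69 genes were higher and 65 lower, and the members called higher were 0. By the adjusted p alone 1941 genes were higher and 1819 lower. Without a filter on low counts 1 interferon-stimulated gene was higher. DESeq2 called 40 genes by replicate number.

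Over all genes together, same-numbered samples deviated alike only for replicate 3, and weakly. The test by replicate number was passed by 25 single genes. Whether same-numbered cultures shared a mouse was not settled. The correlation of deviations from the group means between same-numbered samples was -0.052, -0.081 and 0.16 over 11698 genes. Between differently numbered samples it was 0.22 for Veh 1 with GSK 2 and 0.11 for Veh 2 with GSK 1, and negative for the other pairs. Replicates 1 and 2 thus correlated best across their numbers. The replicate number, as a block or as a test, may therefore join cultures that do not belong together. With the replicate number as a block Ifitm2 had a log2 fold change of 0.26. The interferon-stimulated genes then had 16 higher and 2 lower, and the other restriction factors 3 higher. Over the whole table the block gave 253 genes called higher and 447 lower by adjusted p and fold. Genes passing the adjusted p alone were not counted for the block, so the list counts with it have no like background. The members called by adjusted p and fold were 1 higher and 0 lower with the block, as without it.

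Leaving out single samples gave 1 to 3 interferon-stimulated genes higher and 0 to 1 lower, 1 to 2 genes of the receptor list higher, 0 to 2 restriction factors higher and 4 to 8 lower, 1 to 3 factors acting on IFITM proteins higher and 0 to 2 lower, and 2 to 4 neighbours lower. By replicate number it gave 1 to 488 genes over the whole table and 0 to 26 interferon-stimulated genes. The cause of these changes was not tested. The depth limits Ifitm10, which had 12 to 26 reads per sample.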
